A study of Mus musculus with 69 samples.

Results

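The genes described here are 10 feedback genes of the ERK pathway: the phosphatases Dusp4, Dusp5 and Dusp6, the inhibitors Spry1, Spry2, Spry4, Spred1 and Spred2, and the transcription factors Etv4 and Etv5. They were chosen by symbol, as the rows of the raw count tables whose Ensembl identifier maps to these names, and all 10 were found among the 56953 rows of the tables. The rule reads names only, but the list of names was drawn up with earlier results of these data known. All 10 passed the filter on low counts in every comparison described below.

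ERK is the last kinase of the RAS, RAF and MEK cascade through which receptor tyrosine kinases such as the EGF receptor pass a growth signal to the nucleus. The cascade switches on genes that restrain it. DUSP proteins of this class remove phosphates from MAP kinases, DUSP5 and DUSP6 with a preference for ERK in the nucleus and the cytoplasm, respectively. Sprouty (SPRY) proteins act on the steps from the receptor to RAF, and SPRED proteins bring neurofibromin to the membrane, where it switches RAS off. ETV4 and ETV5 are ETS transcription factors whose transcription commonly follows FGF and ERK signalling, so the mRNA levels of such genes are often read as a trace of ERK output. In smooth muscle, ERK signalling downstream of growth factors is known for its part in proliferation and loss of the contractile state.

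The mRNA levels were measured by poly(A) RNA sequencing in primary cells of male C57BL/6 mice. Vascular smooth muscle cells (VSMC) came from the aorta of wild-type animals (WT VSMC, sets 1 to 4) or of animals with floxed Egfr alleles and a Cre driven by the smooth muscle promoter SM22 (KO VSMC, sets 5 to 8), and endothelial cells (EC, sets 9 to 18) were taken from hearts by magnetic beads against CD31 after removal of CD45-positive cells. A set is the cells of 1 animal, split over the conditions and treated in parallel for 24 h: Control, metabolic stress with 20 mM glucose and fatty acids (HG+FFA), humoral stress with 30 nM angiotensin II and a catecholamine at 300 nM (AII+NA), or both together (ALL). The labels call the catecholamine epinephrine and the study's methods call it norepinephrine. The labels give the fatty acids as 100 µM, where the methods list oleate and palmitate. VSMC had been grown with serum and basic FGF and were kept without either for a day before treatment, a step given for VSMC and not for EC. Albumin was present in all incubations, Control included. Each WT group held 4 libraries, each KO group 4 except ALL with 3 (set 5 has none), EC Control and AII+NA 9 each, and EC HG+FFA and ALL 10 each. The cells of EC sets 17 and 18 were taken from 1 animal. EC sets 9 and 10 shared their animals with WT VSMC sets 1 and 2. EC sets 15 and 16 shared theirs with KO VSMC sets 7 and 6, although the labels give these EC as WT. VSMC and EC form 1 labelled batch each, so cell type and batch cannot be told apart. No age is given in the sources used here.

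The 69 libraries held between 17166133 and 43240489 counted reads. Levels are given as FPM, counts per 1000000 counted reads, with library sizes scaled by the trimmed mean of M values (TMM). Egfr, the deleted gene, averaged 249 to 433 FPM in the WT VSMC sets and 0.949 to 1.8 FPM in KO VSMC sets 6, 7 and 8, but 36.3 FPM in KO VSMC set 5, which is 10.1% of the WT VSMC mean. The summed level of 7 smooth muscle markers ran from 1050 to 3720 FPM in WT VSMC and from 1600 to 4220 FPM in KO VSMC. In EC it ran from 1100 to 5170 FPM, over much the same range. The sum of 10 endothelial markers ran from 52.7 to 5000 FPM over the EC libraries, against 2.54 to 77 FPM in WT VSMC, and Cldn5 stayed under 1 FPM in all 3 kinds of cells. EC sets 9, 11 and 13 stood apart with 60.8 to 138 FPM, which goes against their label of endothelial cells. Their fibroblast markers summed to 3640, 8700 and 9910 FPM. The other EC sets had fibroblast sums from 605 FPM (set 12) to 4320 FPM (set 17), so only sets 11 and 13 lay above them all. Fibroblast markers summed to 4410 to 9440 FPM in the WT VSMC sets and to 5880 FPM in KO VSMC set 5, but to 1490 to 2160 FPM in KO VSMC sets 6 to 8. In bulk RNA, fewer cells of a type and less RNA per cell cannot be told apart.

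The start sites were searched for motifs of the factors that commonly act downstream of ERK. In the 300 bases before each annotated start site (GRCm39, both strands), the ETS motif CCGGAAG was in none of the 10 genes and in 7.33% of 21664 protein-coding genes, the AP-1 motif TGANTCA in 1 (Etv5) and in 7.39% of all, the CRE motif TGACGTCA in none and in 1.74% of all, and the CArG box of serum response factor in 1 (Dusp5) and in 1.7% of all. Dusp5 held a pair of CArG boxes side by side. These matches are descriptions of the letters and not of binding. The start site was that of 1 annotated transcript per gene. Annotated exons covered all 300 bases for Dusp5, Dusp6 and Spry1, 129 to 290 for the other genes, and none for Spry2. For most members the stretch searched was thus in part or wholly annotated as transcribed. The stretches below show the Dusp5 and Etv5 matches in capitals, and the last 150 bases before the start of Spry2, 1 of the members called in WT VSMC below, in which none of the motifs was found and nothing is in capitals.
Dusp5, chr19:53517489-53517518, plus strand: aatacCCATATTTGGCCTTATATGGgcact
Etv5, chr16:22258699-22258728, minus strand: taagagcttcacTGACTCAgctaagcttcc
Spry2, chr14:106134793-106134942, minus strand: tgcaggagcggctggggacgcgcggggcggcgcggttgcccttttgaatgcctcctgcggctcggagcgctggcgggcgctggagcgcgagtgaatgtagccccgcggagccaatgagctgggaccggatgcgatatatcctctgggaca

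All 10 genes were transcribed in all 3 kinds of cells. Levels of different genes are compared per kilobase of exon. In WT VSMC, the mean over sets was highest for Spry1 (13.1 FPM per kb), Spred1 (11.9) and Spry2 (10.6), and lowest for Etv4 (1.24) and Spry4 (1.06). Spry1 and Spry2 differed by less than the spread of their sets, since the set means, not divided by length, ran from 40.7 to 70.4 FPM for Spry1 and from 45.6 to 68.7 FPM for Spry2. In KO VSMC the order began with Spred1 (10.9 FPM per kb), Dusp4 (9.79) and Spry2 (7.13) and ended with Etv4 (3.08) and Spry4 (1.05). In EC, Dusp4 stood first at 32.1 FPM per kb, ahead of Spred1 (13.1) and Spry1 (12.2), with Spry4 last at 1.63. The sets of 1 kind of cell differed far more for some genes than for others. Over the EC sets the highest mean was 35.5 times the lowest for Dusp4, 8.46 times for Spry1 and 7.28 times for Etv5, but only 2.06 times for Spred1 and 1.82 times for Spred2.

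**Figure D1:**
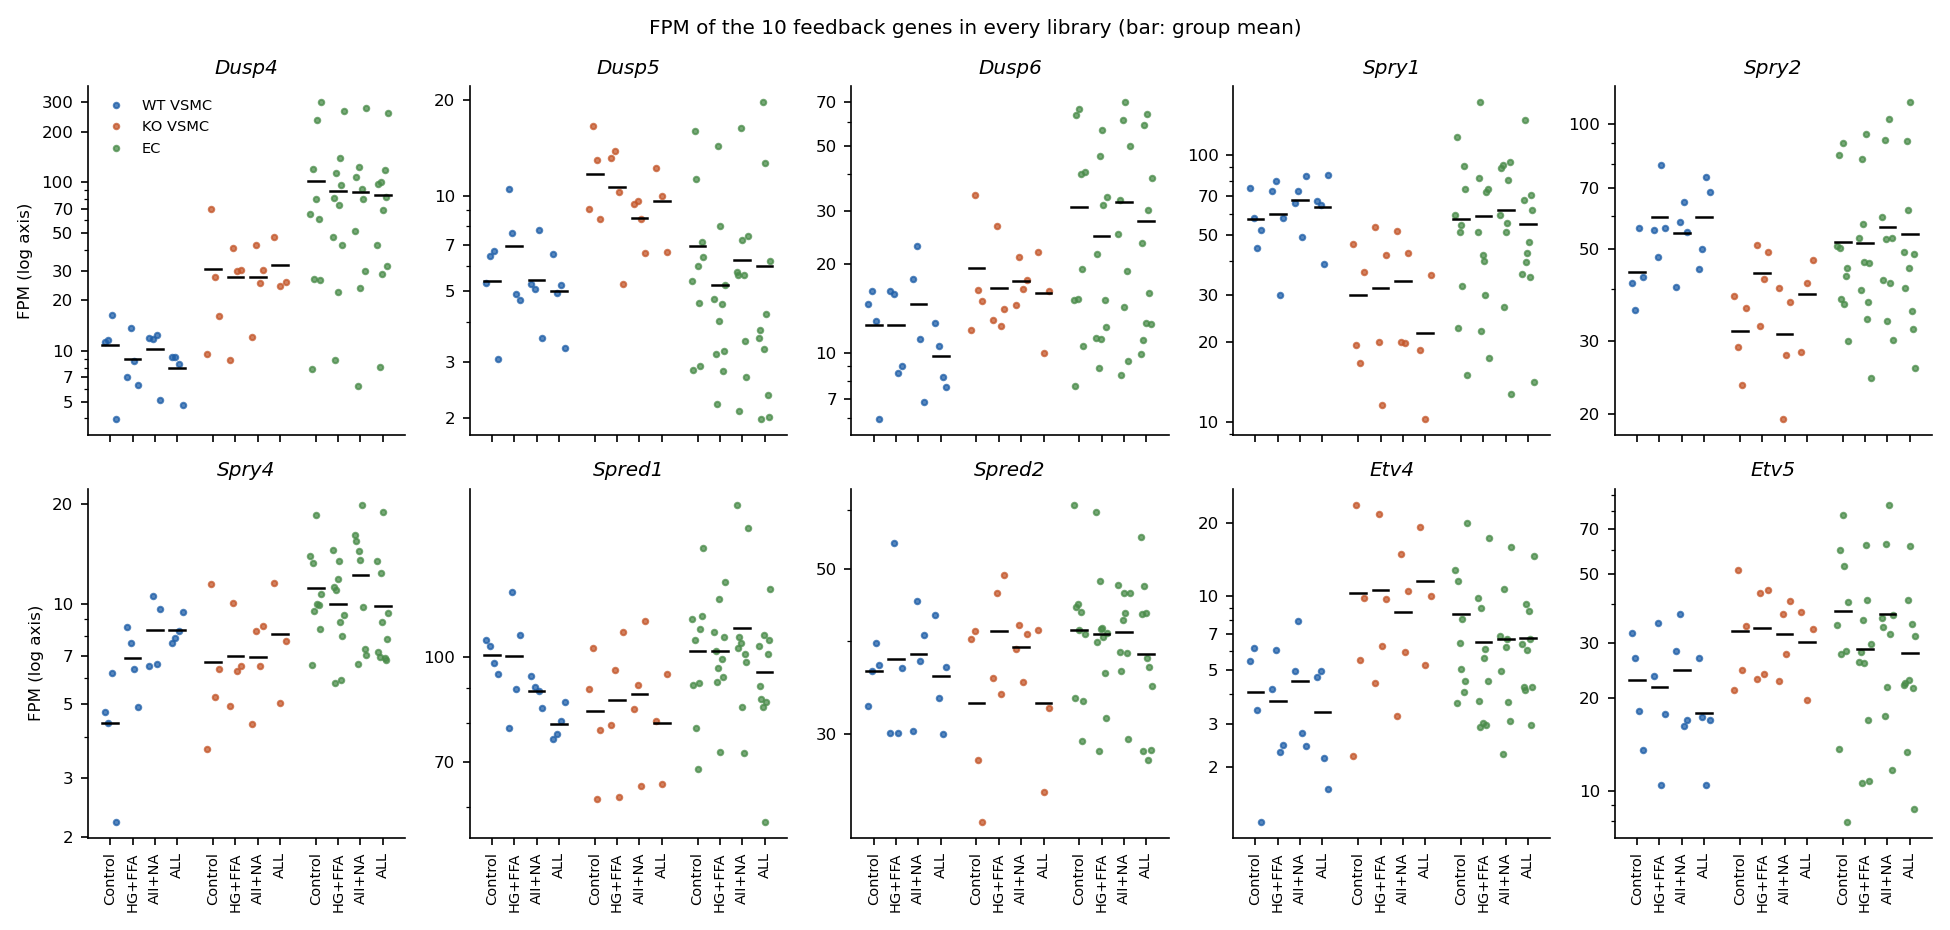
FPM of each of the 10 genes (log axis) in the 69 libraries, by kind of cell and condition, with 1 point per library and a bar at the group mean. Dusp4 lies lowest in WT VSMC and highest in EC, while Spred1 and Spred2 keep to narrow ranges in all groups.

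The first question was whether the stressors moved these genes in WT VSMC. Spry2 and Spry4, inhibitors that act upstream of RAF, rose under the combination of all stressors, Spry2 by 1.34-fold and Spry4 by 1.91-fold, and none of the other 8 genes passed the test. In this comparison 7.45% of all 16905 genes tested were called at an FDR under 0.05 by the edgeR quasi-likelihood test with the set as a block. Neither stressor alone moved any of the 10 genes past that threshold (0.538% of all genes were called under HG+FFA and 0.0532% under AII+NA). The FDR of a given p-value falls as more genes change in a comparison. A gene can therefore pass under ALL and miss under 1 stressor at much the same p-value. At an unadjusted p under 0.05 stood 2 members for each stressor alone, Spry2 and Spry4 in both cases, where 11.2% of all genes stood under HG+FFA and 9.42% under AII+NA. DESeq2 called 1 under each, Spry2 for HG+FFA (1.39% of all genes called by that tool) and Spry4 for AII+NA (1.09%). The 3 comparisons share their Control libraries. Markers of cell types moved under ALL as well: 2 of 10 endothelial markers fell (median log2 fold change -0.72), 1 of 7 smooth muscle markers rose (median 0.39), and so did the 1 cardiomyocyte marker tested. No fibroblast marker was called, and 3 of 5 stood at an unadjusted p under 0.05 (median -0.3), beside 21.7% of all genes. The endothelial sum ran from 3.81 to 77 FPM under Control and from 2.54 to 37.3 FPM under ALL, and the smooth muscle sum from 1090 to 2830 FPM and from 2170 to 2770 FPM. Their part in the Sprouty values was not tested.

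Spry2 (chr14:106128766-106136446, minus strand) had 41.5, 35.7, 56 and 42.9 FPM in sets 1 to 4 under Control. Under HG+FFA the same sets had 55.4, 47.8, 79.6 and 56.2 FPM. Under ALL they had 44.8, 50, 74.6 and 68.7 FPM. Each set lay above its own Control under both conditions, although the ranges of the groups overlap. Its log2 fold change was 0.44 ± 0.11 (SE) for HG+FFA (p = 0.000975, FDR = 0.0921), 0.32 ± 0.11 for AII+NA (p = 0.011, FDR = 0.324) and 0.43 ± 0.11 for ALL (p = 0.00132, FDR = 0.0264). The value for ALL was thus as large as that for HG+FFA, and ALL against HG+FFA gave -0.01 ± 0.11.

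Spry4 (chr18:38719300-38736025, minus strand) had 4.74, 4.39, 6.2 and 2.22 FPM in sets 1 to 4 under Control and 7.67, 7.92, 8.29 and 9.48 FPM under ALL. Every ALL library lay above every Control library. Under AII+NA the sets had 6.53, 10.6, 6.63 and 9.67 FPM, which also lay above all Control values. The share of all genes whose ranges separate in this way was not counted for either comparison. The log2 fold change was 0.64 ± 0.24 for HG+FFA (p = 0.0184, FDR = 0.314), 0.94 ± 0.25 for AII+NA (p = 0.00161, FDR = 0.194) and 0.93 ± 0.25 for ALL (p = 0.0016, FDR = 0.0293). The value and p-value for ALL were thus close to those for AII+NA alone, and only the FDR differed. Set 4 held the lowest Control value and the largest ratio, a log2 ratio of 2.04 for ALL against its own Control. Without set 4 the log2 fold changes for ALL were 0.63 for Spry4 and 0.34 for Spry2, and neither gene was called. Spry4 was called only without set 3, and Spry2 only without set 1 or set 2, among the fits that left out 1 set.

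**Figure D2:**
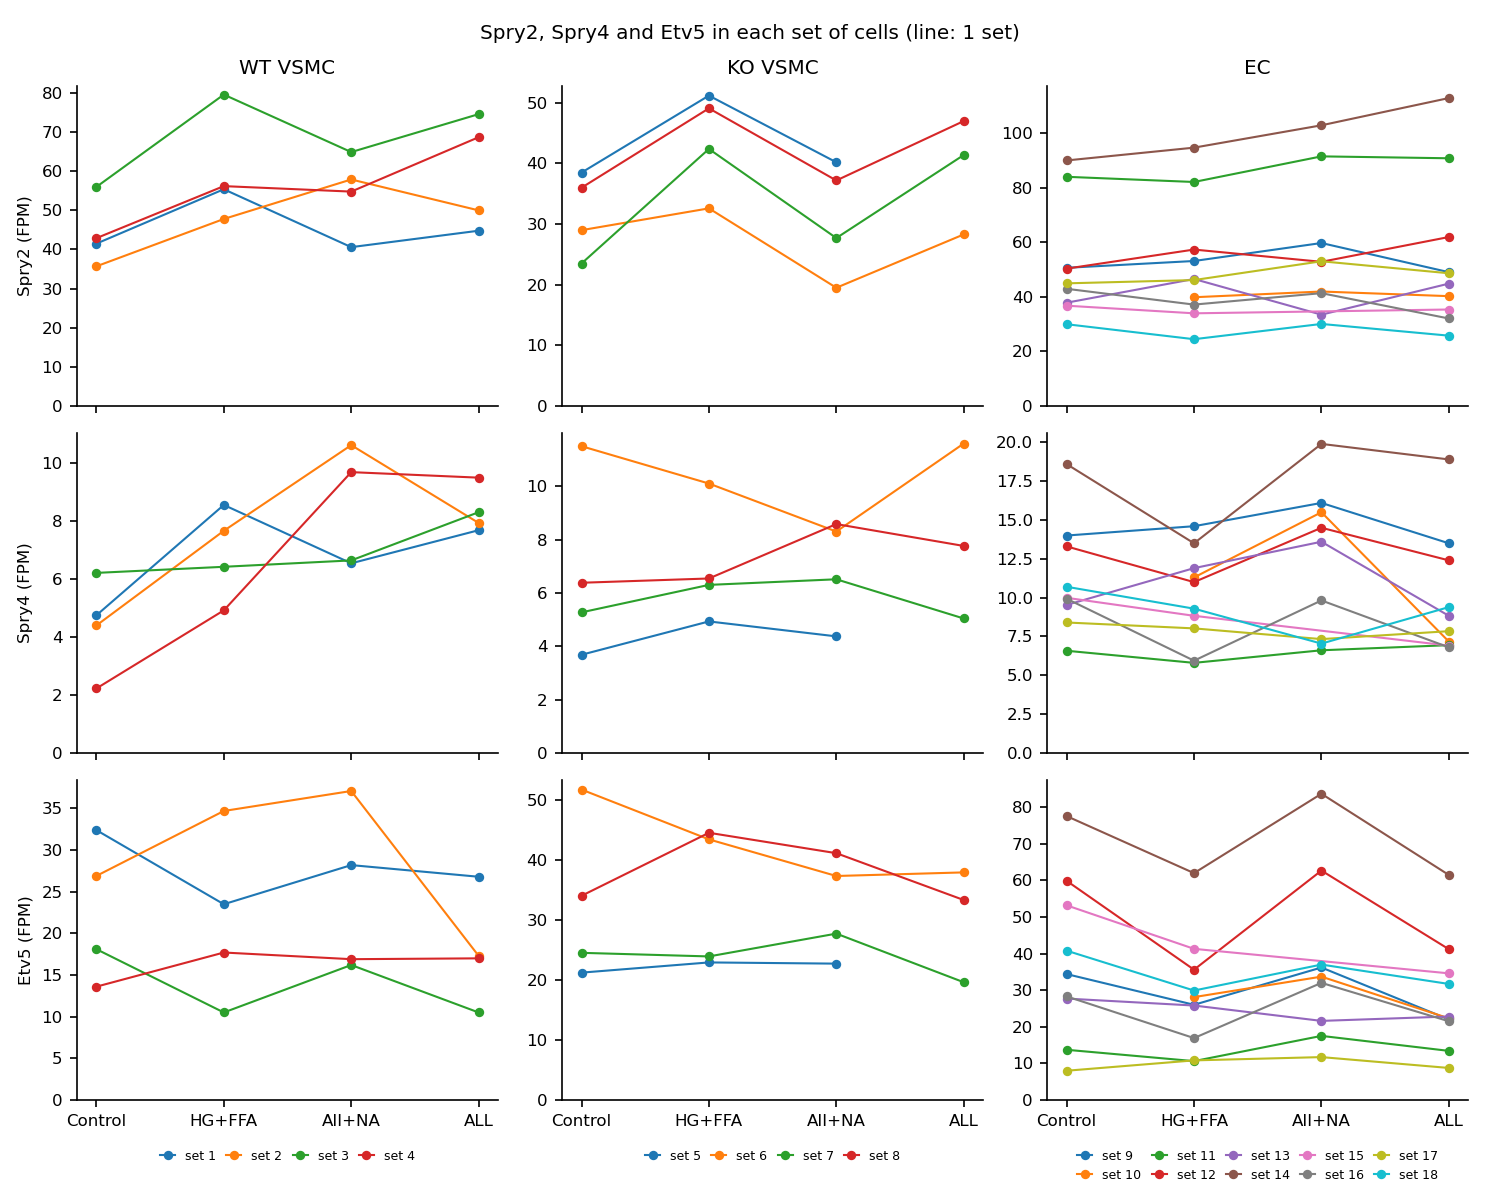
FPM of Spry2, Spry4 and Etv5 (rows) under the 4 conditions in WT VSMC, KO VSMC and EC (columns), with 1 line per set. In WT VSMC all 4 sets are higher under ALL than under Control for Spry2 and Spry4, and in EC most Etv5 lines dip under HG+FFA and ALL.

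Spry1 (chr3:37693897-37698755, plus strand), the third Sprouty gene, gave a log2 fold change of 0.12 ± 0.15 under ALL in WT VSMC (FDR = 0.724). The Spred genes gave values on the other side of zero or at it. Spred1 (chr2:116951524-117018277, plus strand) had 94.5 to 106 FPM under Control and 75.7 to 85.8 FPM under ALL, with no overlap, a log2 fold change of -0.33 ± 0.1 and an FDR of 0.0608, just outside the threshold. The share of all genes without overlap was not counted for this comparison. Spred1 was called with only the 2 groups in the fit (FDR = 0.043, with 5.67% of all genes called). Spred2 (chr11:19874355-19974442, plus strand) gave -0.01 ± 0.15.

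The phosphatase genes did not pass the test in WT VSMC under any stressor. Under ALL, Dusp4 (chr8:35274442-35287048, plus strand) gave -0.39 ± 0.2 (FDR = 0.268), Dusp5 (chr19:53517532-53530862, plus strand) -0.1 ± 0.2 (FDR = 0.839) and Dusp6 (chr10:99086564-99103361, plus strand) -0.3 ± 0.17 (FDR = 0.342). The transcription factor genes gave -0.25 ± 0.2 for Etv4 (chr11:101660568-101676197, minus strand) and -0.34 ± 0.19 for Etv5 (chr16:22200052-22259662, minus strand). The median over the 10 genes was -0.18, beside -0.01 over all genes tested. So the Sprouty genes Spry2 and Spry4 had positive values under ALL while Dusp4, Dusp6, Spred1 and Etv5 had negative ones of 0.3 or more in size, none of which was called.

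**Figure D3:**
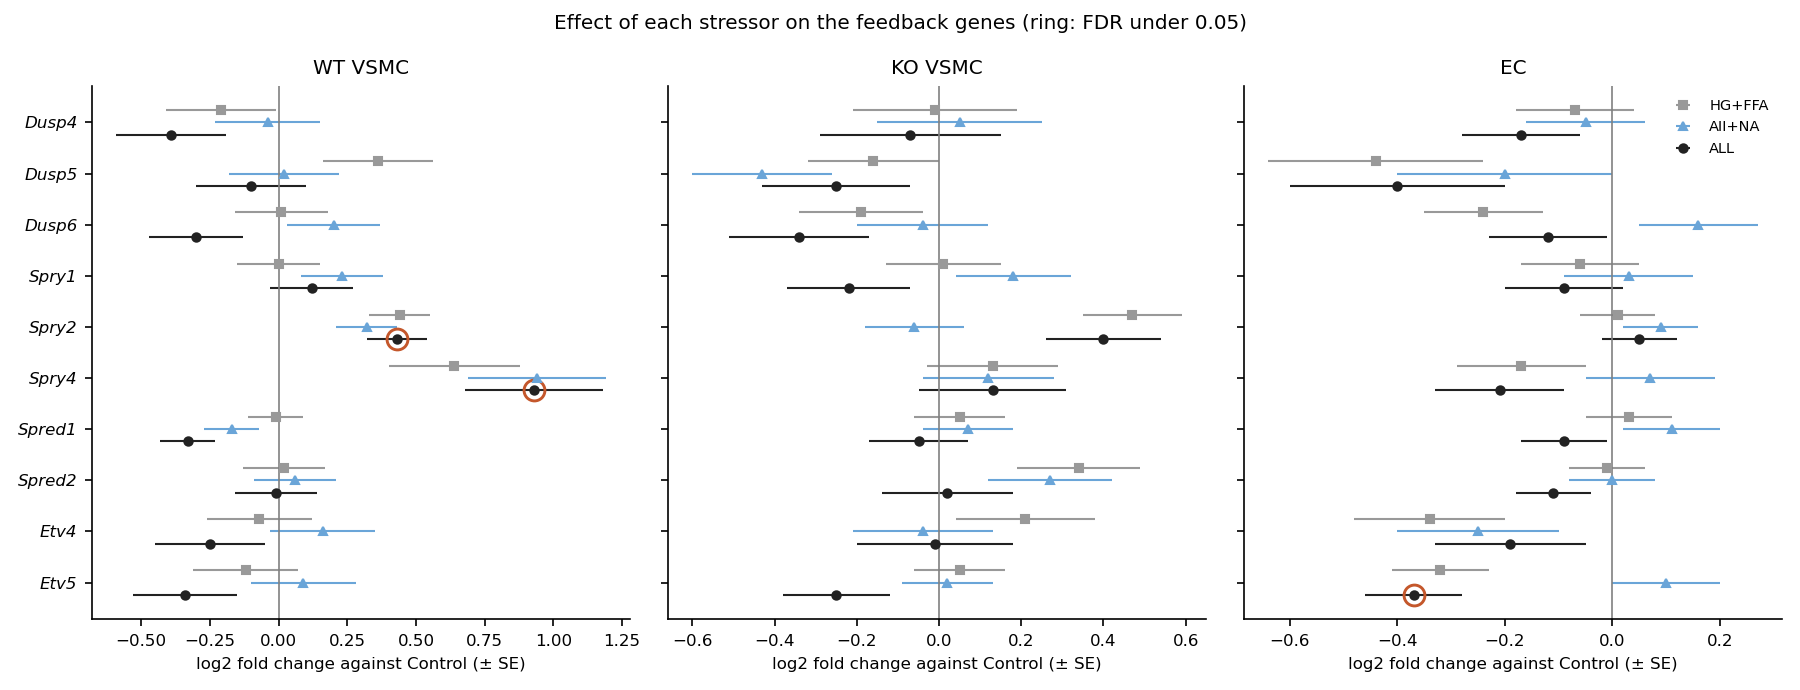
Log2 fold change against Control (± SE) of the 10 genes under HG+FFA, AII+NA and ALL in WT VSMC, KO VSMC and EC, with a ring around values at an FDR under 0.05. The rings mark Spry2 and Spry4 under ALL in WT VSMC and Etv5 under ALL in EC. The x axes differ between panels.

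The combination can also be set against the sum of the single effects, which asks whether both stressors together did more than they did apart. None of the 10 genes was called in that test by edgeR (0% of all genes, with 1.72% of them and 1 member at an unadjusted p under 0.05) or by DESeq2. All 10 values were negative, from -0.1 to -0.65 with a median of -0.32. The median over all genes tested was 0.01. The largest in size was Spry4 with -0.65 ± 0.34, and Spry2 gave -0.33 ± 0.15 (p = 0.0482, FDR = 1). ALL against HG+FFA alone called none of the 10 genes in either tool (0.0414% of all genes in edgeR, with 10.8% of them and 2 members at an unadjusted p under 0.05). Its lowest p-values were those of Spred1 at -0.32 ± 0.1 (p = 0.0063) and Dusp5 at -0.46 ± 0.2 (p = 0.0373).

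In KO VSMC edgeR called no member for HG+FFA (0.439% of all 17538 genes), AII+NA (0%), ALL (0.399%) or ALL against HG+FFA (0%). At an unadjusted p under 0.05 stood 2, 1, 1 and 1 members, respectively, beside 12.4%, 9.76%, 10.5% and 2.91% of all genes. Spry2 had 38.5, 29, 23.5 and 36 FPM in sets 5 to 8 under Control and 51.2, 32.6, 42.4 and 49.1 FPM under HG+FFA. All 4 sets lay above their own Control, with a log2 fold change of 0.47 ± 0.12 (FDR = 0.154), and DESeq2 called it (FDR = 0.042, with 1.64% of all genes called), the only member that tool called in KO VSMC. Under AII+NA its value was -0.06 ± 0.12. Spry4 had values of 0.13 ± 0.16, 0.12 ± 0.16 and 0.13 ± 0.18 for HG+FFA, AII+NA and ALL. Dusp5 gave -0.43 ± 0.17 for AII+NA (p = 0.0194, FDR = 0.509). Without set 5, the set that kept Egfr mRNA, Spry2 gave 0.48 (FDR = 0.0506) under HG+FFA, and the only member called was Spred2 at 0.51 (FDR = 0.0446), where 8.57% of all genes were called. With that set Spred2 gave 0.34 ± 0.15.

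Whether the response differed between genotypes was tested as an interaction. No member was called for HG+FFA (0% of all 18339 genes), AII+NA (0%) or ALL (0.0109%) by edgeR, nor by DESeq2. At an unadjusted p under 0.05 stood 0, 2 and 1 members, beside 3.08%, 11.9% and 7.42% of all genes. Spry4 had the largest difference, WT minus KO: 0.83 ± 0.31 on the log2 scale for AII+NA (p = 0.014, FDR = 0.395) and 0.81 ± 0.33 for ALL (p = 0.0195, FDR = 0.584). Spry2 differed by 0.38 ± 0.17 for AII+NA (p = 0.0354, FDR = 0.409) but by -0.02 ± 0.17 for HG+FFA and 0.03 ± 0.18 for ALL. Without WT set 4 the Spry4 differences were 0.52 for both AII+NA and ALL, and without KO set 5 they were 0.87 and 0.86. A dependence of the Spry4 response on the genotype was thus not shown by the interaction test with the count filter. Without that filter edgeR called 1 member for AII+NA and 1 for ALL, where 0.98% and 0.905% of all genes were called.

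In EC the only member called was Etv5, which fell under ALL by 0.37 ± 0.09 on the log2 scale (FDR = 0.022), in a comparison that called 3.18% of all 17148 genes. No member was called for HG+FFA (3.53% of all genes, with 16.9% of them and 4 members at an unadjusted p under 0.05), AII+NA (0%) or ALL against HG+FFA (0%). With AII+NA and with ALL against HG+FFA, 0 members had an unadjusted p under 0.05, beside 6.67% and 5.14% of all genes, and DESeq2 called none there. Etv5 had 7.97, 34.4 and 77.6 FPM as lowest, median and highest value under Control, and 8.73, 22.5 and 61.5 FPM under ALL. The groups overlap widely because the sets differ, yet Etv5 was lower than the Control of the same set in 8 of 9 sets. Under HG+FFA it was also lower in 8 of 9 sets, with -0.32 ± 0.09 (FDR = 0.0531), and DESeq2 called it (FDR = 0.0232, with 7.2% of all genes called). Under AII+NA it was lower in only 2 of 8 sets, with 0.1 ± 0.1.

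Markers moved beside Etv5 in EC under ALL: 1 of 9 endothelial markers tested and 1 of 3 mesothelial markers rose (median log2 fold changes -0.06 and 0.65). No fibroblast marker was called, and 3 of 5 stood at an unadjusted p under 0.05 (median -0.33), beside 16.2% of all genes. The fibroblast sum ran from 711 to 11200 FPM under Control and from 621 to 9880 FPM under ALL. Their part in the Etv5 value was not tested. The Etv5 call was close to the threshold. It was lost with the animal as the block (-0.39, FDR = 0.542, with 0.781% of all genes called). It was also lost without the low-marker sets 9, 11 and 13 (-0.39, FDR = 0.0586, 1.91%) and without sets 15 and 16, whose animals also gave KO VSMC (-0.33, FDR = 0.113, 1.68%). The share of all genes called thus also fell in each of these fits, from 3.18%. Etv4, a close relative of Etv5, gave -0.34 ± 0.14 under HG+FFA (p = 0.0237, FDR = 0.207) and was lower in 8 of 9 sets. Dusp5 gave -0.44 ± 0.2 (p = 0.0325) and Dusp6 -0.24 ± 0.11 (p = 0.036) under HG+FFA, neither of which was called. Spry2 and Spry4 gave 0.05 ± 0.07 and -0.21 ± 0.12 under ALL in EC. The difference between EC and VSMC responses was not tested.

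Comparing KO with WT VSMC within each condition asks how the feedback genes stand when the EGF receptor is deleted. Dusp4 was called under ALL alone, where it was 4.11-fold higher in KO VSMC, and its log2 fold change was positive in all 4 conditions (under ALL, log2 fold change 2.04 ± 0.31, FDR = 0.0208). In that comparison 3.45% of all 16110 genes tested were called. Under Control (0.00622% of all genes), HG+FFA (0.0184%) and AII+NA (0%) no member was called by edgeR, while DESeq2 called Dusp5 under Control and Dusp4 under HG+FFA and under AII+NA, with 2.01%, 2.67% and 2.19% of all genes. Members at an unadjusted p under 0.05 numbered 3 under Control, 2 under HG+FFA, 4 under AII+NA and 7 under ALL, beside 12.2%, 14%, 12% and 23.7% of all genes. The 4 comparisons use cells of the same animals and are not independent of each other.

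Dusp4 had 11.4, 11.7, 16.5 and 3.98 FPM in WT VSMC sets 1 to 4 under Control. In KO VSMC sets 5 to 8 it had 9.57, 70, 27.4 and 16.2 FPM, so that set 5 lay within the WT range and set 6 far above it. Under ALL the WT sets had 9.29, 9.24, 8.43 and 4.81 FPM and KO sets 6, 7 and 8 had 47.3, 24.2 and 25.7 FPM, with no overlap. Its log2 fold changes were 1.5 ± 0.61 under Control (FDR = 0.408), 1.63 ± 0.44 under HG+FFA (FDR = 0.221) and 1.43 ± 0.39 under AII+NA (FDR = 0.263). Without set 5 these became 1.79, 1.92 and 1.67, with FDR values of 0.1, 0.0273 and 0.04, and 2.41%, 1.21% and 1.93% of all genes were called. Without set 7, the value under ALL was 2.21 with an FDR of 0.0511, and with the conditions of each set summed it was 1.59 (FDR = 0.26).

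The remaining phosphatases and the ETV factors pointed the same way as Dusp4. Dusp5 had 3.06 to 6.72 FPM in WT VSMC and 8.43 to 16.5 FPM in KO VSMC under Control, without overlap, with a log2 fold change of 1.12 ± 0.31 (FDR = 0.32). Under ALL it gave 0.95 ± 0.3 (FDR = 0.106). Etv4 had 4.68, 4.96, 2.18 and 1.63 FPM in WT VSMC and 19.3, 5.27 and 10 FPM in KO VSMC under ALL, again without overlap, with 1.78 ± 0.52 (FDR = 0.0922). Dusp6 and Etv5 gave 0.72 ± 0.29 and 0.77 ± 0.33 under ALL. None of these was called by edgeR, while DESeq2 called Dusp5 (FDR = 0.0303) and Etv4 (FDR = 0.00708) under ALL, where it called 10.6% of all genes.

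Spry1 and Spry2 pointed the other way, toward lower levels in KO VSMC. Spry1 had 67.3, 65.1, 39.2 and 84.2 FPM in WT VSMC and 18.6, 10.3 and 35.6 FPM in KO VSMC under ALL, without overlap. Its log2 fold changes were -0.93 ± 0.34, -0.9 ± 0.48, -1 ± 0.33 and -1.55 ± 0.42 in the order Control, HG+FFA, AII+NA, ALL (FDR = 0.0799 for ALL, where DESeq2 called it with FDR = 0.00336). Spry2 gave -0.45 ± 0.21, -0.43 ± 0.2, -0.79 ± 0.24 and -0.59 ± 0.24, and its ranges did not overlap under AII+NA. Spry4, Spred1 and Spred2 lay near zero under ALL, at -0.02 ± 0.28, 0.02 ± 0.14 and -0.11 ± 0.2.

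Ranges of KO and WT VSMC libraries did not overlap for 1 of the 10 genes under Control (Dusp5), beside 5.55% of all genes averaging 1 FPM or more, for none under HG+FFA (7.71%), for 1 under AII+NA (Spry2, 6.43%) and for 4 under ALL (Dusp4, Dusp5, Spry1 and Etv4, 21.7%). The ALL comparison is the one without KO set 5. That set kept the most Egfr mRNA among the KO sets and had fibroblast markers in the WT range. Its Control library also lay within the WT range for Dusp4, for Etv4 (2.22 FPM, against 1.2 to 6.14 FPM in WT) and for Spry1 (46.4 FPM, against 44.8 to 75.3 FPM), but not for Dusp5 (9.05 FPM). Sets 6 to 8 had lower fibroblast markers than all WT sets and higher mesothelial markers, at 29.8 to 73.3 FPM against 3.75 to 5.74 FPM. For KO against WT, smooth muscle markers had median log2 fold changes of 1.19 under Control, 1.32 under HG+FFA, 0.37 under AII+NA and 0.12 under ALL. At an unadjusted p under 0.05 stood 5 of 7 under Control and 3 of 7 under HG+FFA, beside 12.2% and 14% of all genes. Endothelial markers had medians from -1.34 under Control to -0.76 under AII+NA. No marker of these 2 lists was called. The part of these cell type markers in the differences between genotypes was not tested.

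**Figure D4:**
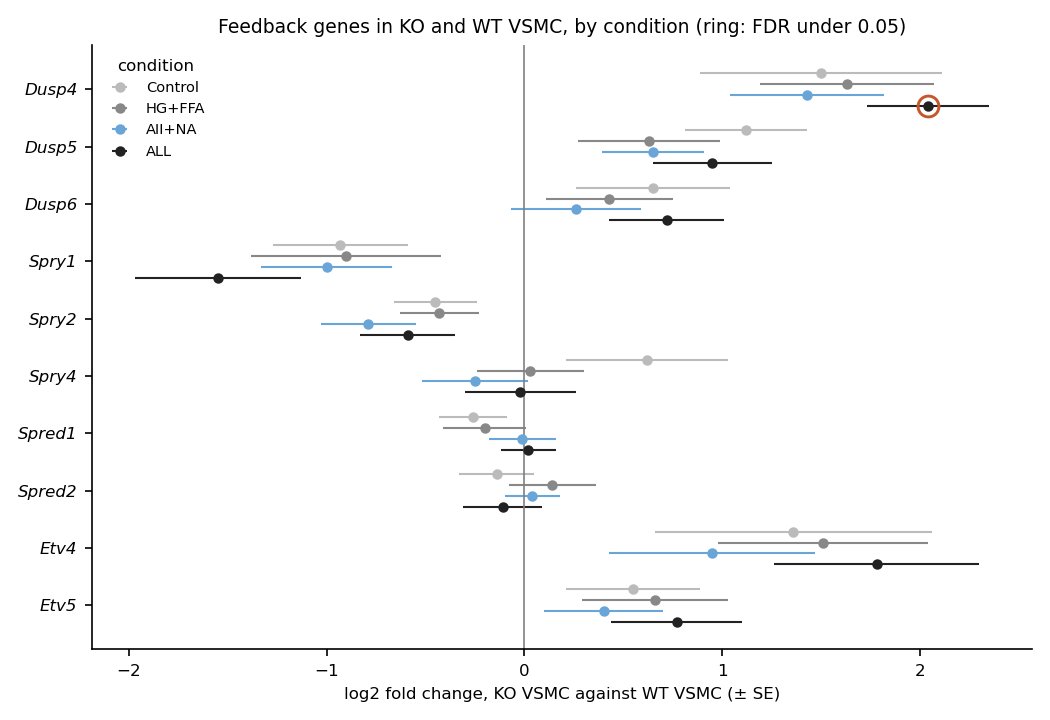
Log2 fold change of KO against WT VSMC (± SE) for the 10 genes in each of the 4 conditions, with a ring around values at an FDR under 0.05. Dusp4, Dusp5, Dusp6, Etv4 and Etv5 lie right of zero and Spry1 and Spry2 left of it in all 4 conditions, and the ring marks Dusp4 under ALL.

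EC and WT VSMC were compared under Control, with the libraries of sets 17 and 18 summed into 1 sample, so that 8 EC animals stood against 4 VSMC sets, EC set 9 and WT VSMC set 1 being of the same animal. Dusp4 and Spry4 were higher in EC, and 13% of all 16958 genes tested were called. Dusp4 was 8.75-fold higher (log2 fold change 3.13 ± 0.77, FDR = 0.0228), with 7.84, 65.1 and 300 FPM as lowest, median and highest EC value against 3.98 to 16.5 FPM in WT VSMC. Spry4 was 2.64-fold higher (1.4 ± 0.32, FDR = 0.0175), with 6.58 to 18.6 FPM against 2.22 to 6.2 FPM. Spry4 was the 1 member of 10 whose ranges did not overlap, beside 8.67% of all genes. Dusp6 gave 1.37 ± 0.55 (FDR = 0.114), Etv4 1 ± 0.47 and Etv5 0.83 ± 0.42, while Spry1, Spred1 and Spred2 gave 0.06 ± 0.36, -0.01 ± 0.17 and 0.22 ± 0.18.

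Without EC sets 9, 11 and 13 the same comparison called 4 members: Dusp4 (3.61, FDR = 0.000957), Dusp6 (1.81, FDR = 0.0103), Spry4 (1.5, FDR = 0.00765) and Etv5 (1.11, FDR = 0.0472). The share of all genes called rose with it, to 30.8%. Without EC sets 15 and 16 it called Spry4 alone (1.47, FDR = 0.0395) with 6.03% of all genes, and Dusp4 gave 2.85 (FDR = 0.0501). Dusp4 was not called when any 1 of the 4 WT VSMC sets was left out (2.85 to 3.4), and Spry4 was not called without set 2 (1.4) or set 4 (1.18).

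The EC sets also differed among themselves. In sets 9, 11 and 13, with the lowest endothelial sums, Dusp6 averaged 15.3, 9 and 13.3 FPM, and in sets 12, 14, 15 and 18, with sums of 3120 to 4490 FPM, it averaged 57.5, 64.4, 34 and 40.8 FPM. Sets 10, 16 and 17 had 25.9, 17.2 and 11.2 FPM, so set 17, with an endothelial sum of 547 FPM, lay among the low values. Dusp4 ran from 7.75 FPM in set 11 to 275 FPM in set 18, and Etv5 from 9.78 FPM in set 17 to 71.2 FPM in set 14. Spry1 had its highest mean, 126 FPM, in set 11 and its lowest, 14.8 FPM, in set 18, the reverse of Dusp4. Sets 17 and 18 came from the same animal and still differed, with 32.8 and 275 FPM of Dusp4, 4.1 and 17 FPM of Etv4, and endothelial sums of 547 and 3700 FPM. Spred2 was flatter, with 30.7 to 55.8 FPM over the 10 sets. These values are descriptions over sets that differ in their markers, and the part of the markers was not tested.

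**Figure D5:**
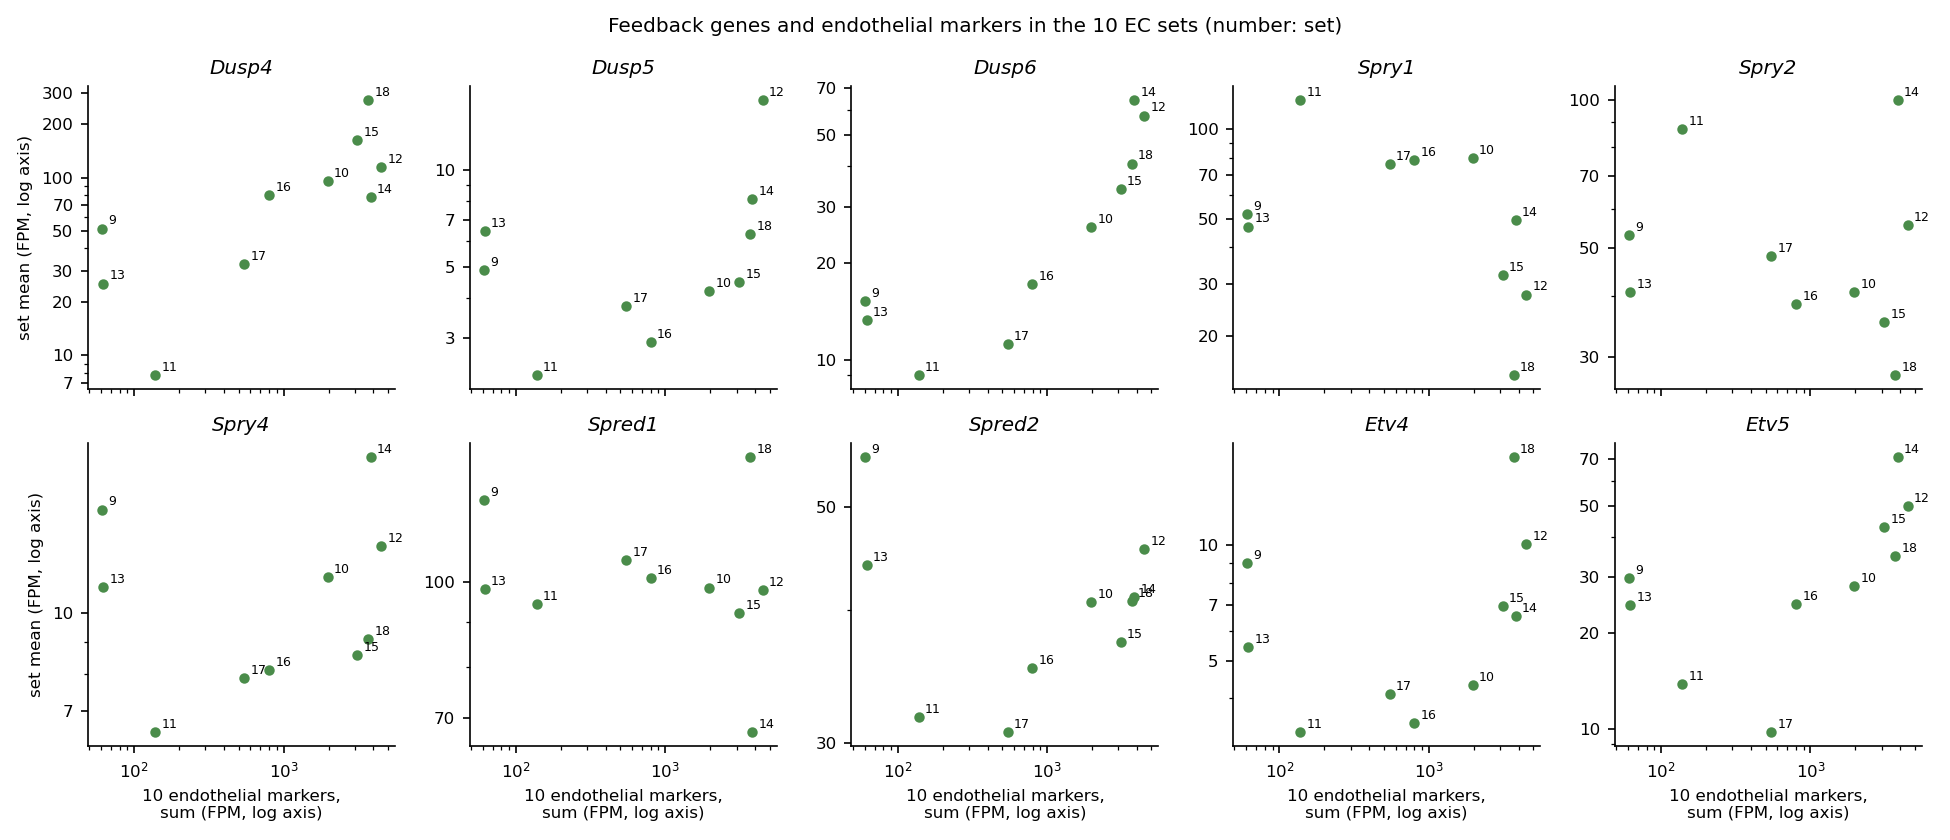
Mean FPM of each of the 10 genes in the 10 EC sets (log axis) against the summed FPM of 10 endothelial markers (log axis), with the set number at each point. Dusp6 is lowest in sets 9, 11, 13 and 17 and highest in sets 12 and 14, whereas Spry1 is highest in set 11 and lowest in set 18.

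The members did not move as a block from library to library. Over the 31 VSMC libraries, with each set centred on its own mean, the 45 pairs of members had correlations of log2(FPM + 0.1) from -0.34 to 0.77 with a median of 0.23, and 12 pairs lay above 0.5. These libraries share sets and conditions, so the values describe likeness only. The same figures for pairs drawn from all genes were not computed, so whether members are more alike than other genes is not known. The highest pairs were Dusp6 with Etv5 (r = 0.77), Dusp4 with Etv5 (r = 0.73), Dusp4 with Spred1 (r = 0.67) and Etv4 with Etv5 (r = 0.65). Among 12149 genes averaging 3 FPM or more, the gene most like Dusp6 was Etv5, and the gene most like Etv5 was Dusp6, followed by Tgfa (r = 0.74), which encodes an EGF receptor ligand. Spry4 was most like Ier5 (r = 0.85), an immediate early gene, and Net1 (r = 0.84), which encodes an exchange factor for RHOA. Spry2 was most like Fam107b (r = 0.86). Dusp4 was most like Frmd6 (r = 0.75) and Gart (r = 0.74), and Spry1 most like Chst1 (r = 0.85) and Prr14 (r = 0.78).

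Other genes around the pathway give a frame for these values. Of all genes tested, edgeR called 7.45% under ALL in WT VSMC. It called 0.439% under HG+FFA and 0.399% under ALL in KO VSMC, and 3.53% and 3.18% in EC. For KO against WT VSMC under ALL it called 3.45%, and for EC against WT VSMC under Control 13%. Of 11 further feedback genes, 9 were tested in WT VSMC, and 2 rose and 0 fell under ALL: Dusp1 (log2 fold change 0.91 ± 0.17, FDR = 0.00495), a nuclear MAP kinase phosphatase, and Dusp8 (1.02 ± 0.29, FDR = 0.0421), a phosphatase of stress kinases. In KO VSMC, Dusp1 rose under HG+FFA (0.57 ± 0.11, FDR = 0.0286) and ALL (0.67 ± 0.12, FDR = 0.0247), the 1 gene of 10 tested called in each. In EC, Dusp16, a phosphatase with a preference for JNK, rose under HG+FFA (0.48 ± 0.09, FDR = 0.00175) and ALL (0.33 ± 0.09, FDR = 0.0384). Of 12 other ERK response genes, 1 rose and 3 fell in WT VSMC under ALL. Epha2, a receptor tyrosine kinase, rose (0.61 ± 0.16), whereas Egr1 (-1.05 ± 0.27, FDR = 0.0262) and Egr3 (-0.94 ± 0.25, FDR = 0.0314), early growth response factors, and Epha4 (-0.78 ± 0.21, FDR = 0.0325) fell. In EC 3 of these 12 fell under HG+FFA, Egr1 (-0.83 ± 0.15), Egr2 (-1.04 ± 0.26) and Egr3 (-1.3 ± 0.32), and 2 fell under ALL, Egr1 and Egr3. Of 19 genes of the core cascade from receptor adaptors to ERK, 0 were called by edgeR against Control under any stressor in any of the 3 kinds of cells, with 0 to 7 at an unadjusted p under 0.05. The 7 stood under ALL in WT VSMC, where 21.7% of all genes did. Over these comparisons that share of all genes ran from 6.67% to 21.7%. Under ALL, KO VSMC had less mRNA of Ksr1, a scaffold of the cascade, than WT VSMC (-1.28 ± 0.27, FDR = 0.0442) and more of Epha2 (1.71 ± 0.29, FDR = 0.0306). Under Control, EC had more Epha2 (3.62 ± 0.56) and Epha4 (2.31 ± 0.6) and less of the feedback genes Errfi1 (-1.3 ± 0.27), Il17rd (-1.01 ± 0.27) and Dusp10 (-1.22 ± 0.37) than WT VSMC, and they had more Sos1 and Braf mRNA (0.76 ± 0.18 and 0.94 ± 0.24).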

How the data were processed

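Poly(A) RNA was sequenced in pairs of reads for 69 samples. The deposited tables hold raw counts per Ensembl gene, which the authors made with HISAT2 2.1.0 on mm39 and featureCounts, with exons as features and multi-mapping reads counted. Strand and pair settings are not given in the sources used here. Parts of the exons of Dusp5 (22.4% of bases), Dusp6 (23%), Spry1 (19%), Spry2 (11%), Etv4 (9.8%) and Etv5 (8.5%) overlap other annotated genes, so their reads could be split. Of 56953 identifiers, 56310 were matched to GENCODE, and 0.024% of counts lay outside.

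Counts were tested with edgeR 4.0.16 (TMM, filterByExpr, quasi-likelihood F test, R 4.3.3) on all genes of the groups in the fit, with Benjamini-Hochberg adjustment over all genes tested. An FDR under 0.05 was called. SE is the absolute log2 fold change divided by the square root of F. Stressor comparisons used the 4 conditions of 1 kind of cell with the set as a block, since a set comes from 1 animal and its samples deviated together (mean correlation within sets 0.797, 0.78 and 0.819 in WT VSMC, KO VSMC and EC, lowest 0.494). The interaction used all VSMC, and genotype and cell type comparisons used 1 condition without a block. Alternatives were DESeq2 1.42.0, its size factors, no filter, other blocks, samples left out, and the study's rule for differential expression (FDR under 0.05 in both tools, absolute log2 fold change of at least 0.64 and at least 3 FPM). Log values used a pseudocount of 0.1 FPM. Libraries held 17166133 to 43240489 counts. No replicate pair differed by less than sampling noise. The scripts were tested on simulated data.

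The 10 members are all named. Of each further list, up to 4 called genes with the smallest FDR were named in a comparison described, and for members described in detail the 2 genes most like them. Some genes that this rule names are not reported here. The members and lists were chosen with earlier results of these data known. The motifs, and the fits without EC sets 9, 11 and 13 or 15 and 16, were chosen after values were seen.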

Additional observations from a re-analysis of the deposited data

Results flagged for a closer look

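Single libraries stood apart from the rest of their group by Dixon's test for 11 of 110 combinations of gene and group, where chance flags about 1 in 20 groups. Of these, 9 came from EC, and 3 of those were Dusp4 in set 18, with 265 FPM under HG+FFA (other sets 8.91 to 139), 275 FPM under AII+NA (6.21 to 124) and 259 FPM under ALL (8.03 to 118). The same set was highest for Etv4 under HG+FFA at 17.4 FPM, against 2.93 to 9.89 FPM. Set 12 was highest for Dusp5, with 14.3 FPM under HG+FFA (2.21 to 8.02) and 16.3 FPM under AII+NA (2.11 to 7.44). Set 11 was highest for Spry1, with 158 FPM under HG+FFA (17.4 to 82.1) and 135 FPM under ALL (14.2 to 70.7). Set 9 held the highest Spred2 value under Control, 60.9 FPM against 29.4 to 44.8 FPM. In KO VSMC, set 6 stood apart for Dusp6 under HG+FFA with 26.8 FPM, against 12.3 to 14 FPM. In WT VSMC, set 4 held the lowest Dusp4 value under AII+NA, 5.14 FPM, against 11.8 to 12.5 FPM.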

How the results depend on the processing

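Of 230 counts of members called under alternatives, 187 were within 1.5 times the reported count. Most reported counts were 0, and a 0 that stayed 0 is among the 187. For the 6 calls of single members, 40 of 64 values under alternatives kept the call and 24 lost it. No direction of a called member turned. Without the set as a block, which ignores that samples are paired by animal, 0 members were called under ALL in both WT VSMC (2 with the block) and EC (1 with it), and no other count of members moved without it. Calls over all genes also vanished or shrank without the block, to 0 for ALL in WT VSMC and 2 in EC. DESeq2 called 1 member for HG+FFA in WT VSMC, KO VSMC and EC, 1 for AII+NA in WT VSMC, 1 for KO against WT under each of Control, HG+FFA and AII+NA, and 4 under ALL. Over all genes it called 1986 for KO against WT under ALL, 916 for ALL in EC and 3660 for EC against WT. With no count filter, the members called in WT VSMC were 2 for HG+FFA, 1 for AII+NA, 5 for ALL and 1 for ALL against HG+FFA (1.94% of all genes). For HG+FFA, 1 was called in KO VSMC (1.85%) and 1 in EC (2.42%). The genotype difference gave 1 for the effect of AII+NA (0.98%) and 1 for that of ALL (0.905%). KO against WT under ALL gave 3 (3.72%). That setting also raised the calls over all genes in WT VSMC, from 91 to 575 for HG+FFA, from 9 to 625 for AII+NA and from 1259 to 1885 for ALL. With only the groups compared in the fit, 1 was called for HG+FFA in WT VSMC and 0 for ALL in EC. The study's rule for differential expression left 1 for ALL in WT VSMC and 0 in EC. The EC count for ALL was also 0 with the animal as block (0.781% of all genes called) and with complete sets only (1.35%). It was 0 too in the fits chosen after seeing the data that left out sets 9, 11 and 13 (1.91%) or sets 15 and 16 (1.68%). In those added fits, EC against WT VSMC had 4 and 1 members. Counts summed over each set gave 0 for KO against WT. Leaving out 1 set at a time gave 0 to 1 members for ALL in WT VSMC, HG+FFA in KO VSMC, KO against WT under HG+FFA and AII+NA, and EC against WT VSMC (WT sets only), and 0 to 2 for KO against WT under ALL. The cause of these moves was not tested. With 3 or 4 VSMC sets a group, calls near the threshold rest on single sets.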
